A study of Mus musculus with 21 samples.

Results

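The genes described here are 49 genes of mitosis and chromosome segregation: the condensin subunits and topoisomerase II alpha, the guardians of centromeric cohesion and separase, the chromosomal passenger complex and haspin, the kinases of mitotic entry and centrosomes, the spindle checkpoint, the kinetochore, and the motors and organisers of the spindle and its midzone. They were listed by gene symbol for what their proteins do. All 49 were among the 23412 gene symbols of the count tables, 47 under the listed symbol and 2 under an older symbol (Sgol2 for Sgol2a, Gsg2 for Haspin), and all 49 were among the 14963 genes with enough reads to be tested. RNA was sequenced from v6.5 cells, a male mouse embryonic stem cell (mESC) line grown here on gelatin, to learn what the loss of the cohesin-bound proteins PDS5A and PDS5B, alone or with less STAG1 or STAG2, does to gene expression. There were 7 groups of 3 libraries. Wild-type (WT) cells received siGLO, a control for transfection, or siPds5b, an siRNA against Pds5b; Pds5b knockout cells (Pds5b-KO) received siGLO; and Pds5a knockout cells (Pds5a-KO) received siGLO, siPds5b, siStag1 or siStag2. Every well was transfected, at 50 nM, and its polyadenylated RNA was collected at 48 h. Each knockout was a single clone made with CRISPR-Cas9 by edits in an exon, with a deletion on an allele of the Pds5a clone that runs on into the neighbouring intron, so that clone and genotype cannot be told apart, and the 3 libraries of a group are known only as separate replicates, so that the p-values measure the spread between these samples.

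The libraries held 23283401, 17539639 and 23989198 counted reads in WT siGLO and 19628146, 17835821 and 17434084 in WT siPds5b. Those of Pds5b-KO siGLO held 19187351, 19535977 and 20445930, and those of Pds5a-KO siGLO held 20009068, 21360847 and 20327839. In Pds5a-KO cells the siPds5b libraries held 22026367, 18752413 and 19421506 reads, the siStag1 libraries 20791962, 17939301 and 20036207, and the siStag2 libraries 19855380, 17311090 and 19554088. Levels are given as normalised read counts, which are counts scaled by edgeR's TMM factors to a library of 19816922 reads. Levels in a list follow the order of replicates 1, 2 and 3. A gene is said to rise or fall where the quasi-likelihood test of edgeR gave an adjusted p under 0.01, with the adjustment made over all 14963 genes. Fold changes are on the log2 scale, n = 3 in each group, with the standard error (SE) of the fit.

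Before a cell divides, condensin and topoisomerase II compact and disentangle its chromosomes while cohesin, guarded at the centromere by shugoshins, holds sister chromatids together until kinetochores have captured spindle microtubules. The checkpoint proteins keep CDC20 from activating the anaphase-promoting complex until every kinetochore is attached, after which securin and cyclin B are degraded, separase cuts cohesin, and the spindle midzone directs cytokinesis. Many of these genes are transcribed mostly in late S phase, G2 and mitosis, and mESCs, which cycle fast with a short G1 phase, carry their transcripts at high levels.

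The labels of the siRNA groups were checked against the targeted genes. Pds5b, at 2354, 2019 and 2285 normalised read counts in WT siGLO, stood at 686.7, 839.4 and 802.4 in WT siPds5b and at 277.6, 312.1 and 237.8 in Pds5b-KO siGLO. The 3 groups did not overlap, with log2 fold changes of -1.52 (edgeR adjusted p 4.93e-08) and -3.01 (edgeR adjusted p 8.81e-14) against WT siGLO. In Pds5a-KO cells siPds5b left 1073, 900.8 and 735.5 normalised read counts of Pds5b, a log2 fold change of -1.39 against Pds5a-KO siGLO (edgeR adjusted p 2.3e-08). Stag1 stood at 617.2, 600.1 and 506.3 after siStag1 against 2515, 2293 and 2475 in Pds5a-KO siGLO, which is a log2 difference of -2.08 (edgeR adjusted p 5.54e-14). Stag2 stood at 851.1, 953.9 and 820.6 after siStag2 against 3561, 2930 and 3275 in Pds5a-KO siGLO, which is a log2 difference of -1.90 (edgeR adjusted p 3.48e-11). In neither case did the groups overlap. Pds5a itself was at 5256, 4720 and 5200 in WT siGLO and at 4786, 3788 and 4239 in Pds5a-KO siGLO, and these overlapped (log2 fold change -0.25, edgeR adjusted p 0.0415). Counts summed over a whole gene do not show what the edits did to the transcript, so these values do not check that knockout.

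The identity of the cells was checked with 3 lists of markers. All 9 mESC markers were tested, with Tdgf1 taking the most reads, and summed to 151010, 145980 and 140360 normalised read counts in WT siGLO and 154460, 147930 and 139220 in WT siPds5b. The sums were 107830, 115270 and 123350 in Pds5b-KO siGLO and 126600, 120170 and 112010 in Pds5a-KO siGLO. Pds5a-KO cells gave 106790, 100560 and 96159 with siPds5b, 114430, 107370 and 108860 with siStag1, and 84110, 99075 and 95851 with siStag2. Every knockout library thus lay below every WT library, and against WT siGLO 5 of the 9 markers fell in Pds5a-KO siGLO, 5 fell and 1 rose in Pds5b-KO siGLO, and 6, 5 and 8 fell in Pds5a-KO cells with siPds5b, siStag1 and siStag2. Of 7 markers of fibroblast feeder cells 5 were tested; Col1a1 took the most reads, and Postn, Dcn and Lum were at 0 in 4, 4 and 10 of the 21 libraries. These feeder markers summed to 1068.1, 1123.1 and 1493.4 in WT siGLO, 1736.1, 1737.9 and 2166.2 in WT siPds5b, 305.06, 341.97 and 431.95 in Pds5b-KO siGLO, and 333.16, 939.01 and 1395.6 in Pds5a-KO siGLO. In Pds5a-KO cells they summed to 442.17, 1016.9 and 1304.6 with siPds5b, 295.51, 648.94 and 921.2 with siStag1, and 607.07, 581.26 and 863.51 with siStag2, so that libraries of the same group differed widely; of the 5 tested, 2 fell in Pds5b-KO siGLO, 1 with siPds5b, 2 with siStag1 and 1 with siStag2 in Pds5a-KO cells against WT siGLO. The 6 markers of early ectoderm and endoderm, of which Nes took the most reads, summed to 2263.4, 2597.6 and 2769.4 in WT siGLO, 2675.5, 2888.7 and 2726.4 in WT siPds5b, 2621, 2459.6 and 2420.8 in Pds5b-KO siGLO, and 1906.5, 1844.4 and 1504.6 in Pds5a-KO siGLO. They summed to 1724.3, 1549.7 and 1326.6 with siPds5b, 2251.7, 2395.8 and 1855.2 with siStag1, and 2001.8, 2170.3 and 1916.1 with siStag2 in Pds5a-KO cells, and none of the 6 was at 0 in any library. Within this list Nes fell in Pds5a-KO siGLO and Pds5a-KO siPds5b, while Pax6 rose in Pds5b-KO siGLO (log2 fold change 2.20, edgeR adjusted p 4.84e-06), with siStag1 (1.45, 0.000504) and with siStag2 (1.58, 0.000141), which the sums do not show. What part these markers have in the values of the mitosis genes was not tested. In bulk RNA, fewer cells in G2 or mitosis and less RNA per cell cannot be told apart.

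The comparison of each knockout with WT siGLO asks what the stable loss of either protein does. In Pds5a-KO siGLO 2 of the 49 mitosis genes rose, where 9.63% of all tested genes did, and 4 fell, where 8.12% did; their median log2 fold change was 0.01 against 0.00 over all tested genes. In Pds5b-KO siGLO 2 rose against 9.64% of all tested genes and 5 fell against 8.57%, with a median log2 fold change of -0.09 against 0.00. The 4.08% of mitosis genes that rose in either knockout was thus below the share of genes at large, and the 8.16% and 10.2% that fell were near it. The shares of genes at large also count chromosome 8, described below, which holds none of the 49. Without WT siGLO replicate 1 the count went from 6 to 3 in Pds5a-KO siGLO and from 7 to 4 in Pds5b-KO siGLO. The shares of all tested genes with a library left out are not given, here or in the comparisons below. Such counts thus do not separate a loss of calls among the members from a loss among genes at large.

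Acute depletion of PDS5B in WT cells was measured by WT siPds5b against WT siGLO. By edgeR 0 of the 49 mitosis genes rose and 0 fell, where 0% of all tested genes rose and 0.00668% fell, the 1 gene being Pds5b itself; 0 of the 49 had an unadjusted p under 0.05 and DESeq2 called 0. Their log2 fold changes ran from -0.18 to 0.15.

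Cells with both proteins depleted, Pds5a-KO siPds5b, were compared with WT siGLO to measure the joint loss. Here 6 mitosis genes rose (17.4% of all tested genes did) and 11 fell (14.6% of all did), with a median log2 fold change of -0.02 against 0.00. The share that rose, 12.2%, was below that of all tested genes and the share that fell, 22.4%, above it. The 17 calls became 11 without WT siGLO replicate 1, 9 without WT siGLO replicate 3 and 11 without Pds5a-KO siPds5b replicate 2. The shares of all tested genes called in those fits are not given.

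The groups given siStag1 or siStag2 were compared with WT siGLO to measure the Pds5a knockout and the siRNA together. What either siRNA adds in Pds5a-KO cells is asked by the comparisons with Pds5a-KO siGLO below. Against WT siGLO 2 mitosis genes rose in Pds5a-KO siStag1 (10.6% of all tested genes) and 4 fell (9.37%), while in Pds5a-KO siStag2 7 rose (16.2%) and 4 fell (13.9%). By DESeq2 6 rose (12.1% of all tested genes) and 4 fell (10.6%) with siStag1. The median log2 fold changes of the 49 were -0.01 and -0.03. The 6 calls of siStag1 became 3 without its replicate 1 and 3 without its replicate 3, and the 11 calls of siStag2 became 6 without WT siGLO replicate 1 and 7 without WT siGLO replicate 3. These 5 comparisons and that of WT siPds5b all use the same 3 WT siGLO libraries, so their calls are not independent.

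Within Pds5a-KO cells each siRNA was also compared with siGLO, and these 3 comparisons share the Pds5a-KO siGLO libraries. With siPds5b 1 mitosis gene rose (4% of all tested genes) and 2 fell (3.59%). Only 1 of these calls was made when edgeR was fitted to these 6 libraries alone, beside 3.66% of all genes tested in that fit. With siStag1 edgeR called 0 higher, against 0.0134% of all tested genes, and 0 lower, against 0.0802%; 2 of the 49 had an unadjusted p under 0.05, DESeq2 called 0, and log2 fold changes ran from -0.20 to 0.19. With siStag2 edgeR also called 0 higher, against 0.969%, and 0 lower, against 1.27%; 14 of the 49 had an unadjusted p under 0.05, DESeq2 called 0, and log2 fold changes ran from -0.35 to 0.29. With replicate number as a block, which treats samples of the same number as pairs, edgeR called 0.321% of all tested genes with siStag1 and 4.52% with siStag2 (DESeq2 without a block 0.495% and 5.15%), and again 0 of the 49 in each. Without the block, and at an adjusted p under 0.05, the siStag2 comparison held 3 mitosis genes, where 7.99% of all tested genes passed; these 3, named after their values were seen, were Cenpf (log2 fold change 0.29, edgeR adjusted p 0.0245), Bub3 (-0.25, 0.0351) and Kif4 (0.20, 0.0422).

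The knockouts were compared directly to find where the loss of PDS5A and of PDS5B differ. Between them 10 mitosis genes were higher in Pds5a-KO siGLO (9.74% of all tested genes) and 1 was lower (9.46%), with a median log2 fold change of 0.03 against 0.02 over all tested genes. The mitosis genes that were higher in Pds5a-KO siGLO made up 20.4% of the 49. The 11 calls became 6 without Pds5a-KO siGLO replicate 2, 7 without Pds5a-KO siGLO replicate 3 and 5 without Pds5b-KO siGLO replicate 2. When edgeR was fitted to the 6 libraries of these groups alone it called 2 of the 49, beside 12.8% of all genes tested in that fit.

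The last comparison asks whether siPds5b acts differently in Pds5a-KO and in WT cells, through the interaction of siRNA and genotype. Fitted to all libraries, edgeR called 0 of the 49 with a log2 fold change that was more positive in Pds5a-KO than in WT cells, against 0.588% of all tested genes, and 0 with a more negative one, against 0.896%; 4 had an unadjusted p under 0.05 and DESeq2 called 0. The smallest adjusted p was that of Birc5 (difference of log2 fold changes -0.35, SE 0.09, edgeR adjusted p 0.0303), followed by Pttg1 (-0.58, SE 0.17, 0.0546) and Spc24 (-0.51, SE 0.16, 0.0734), which were named after their values were seen. Fitted to the 12 libraries of these groups alone, edgeR did call Pttg1 (-0.57, adjusted p 0.00691), while over the 7 settings its adjusted p ran from 0.00691 to 0.0923. Whether the fall of Pttg1 with siPds5b differs between the genotypes thus depends on which libraries are fitted, and for Birc5, with adjusted p from 0.0116 to 0.0529 over the settings, a difference is not shown at the threshold used.

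In all, edgeR called 28 of the 49 mitosis genes in at least 1 of these comparisons and 21 in none, a share of 57.1% where 53.7% of all tested genes were called in at least 1.

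**Figure D1:**
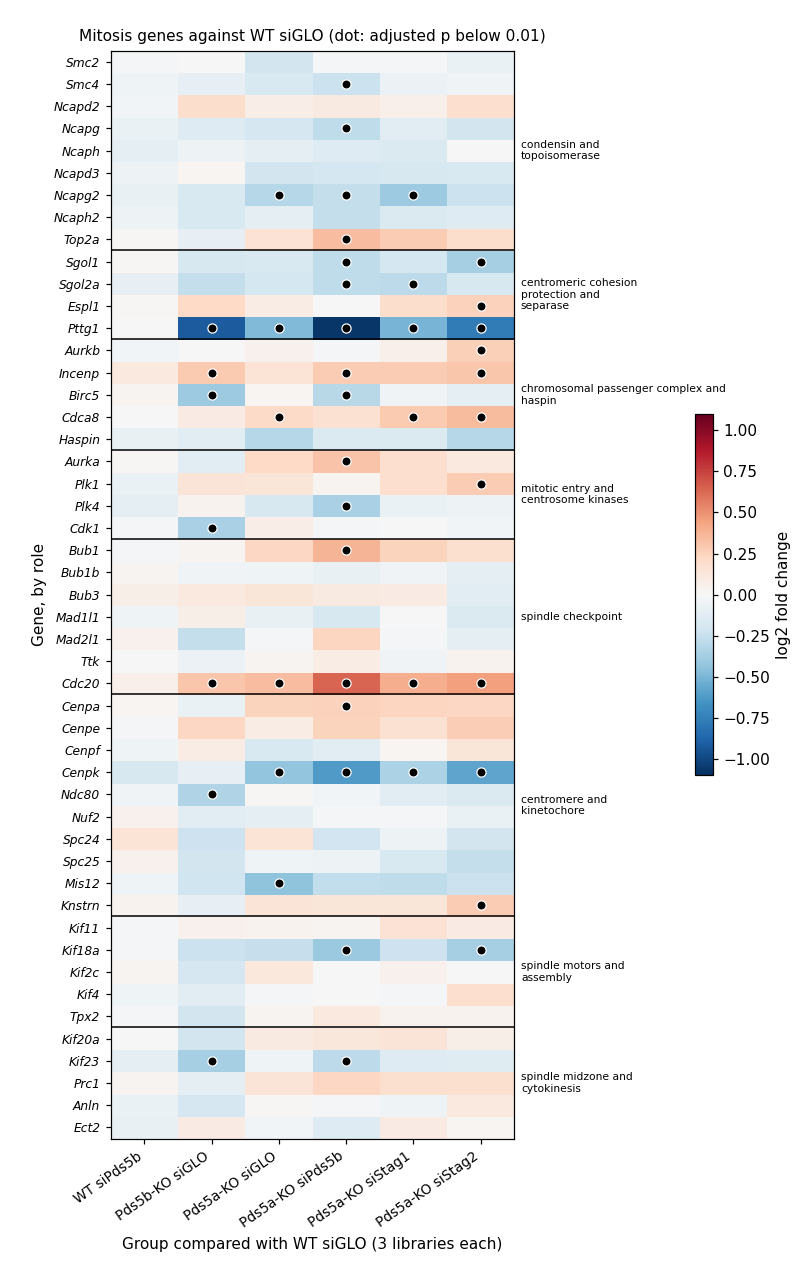
Log2 fold changes of the 49 mitosis genes (lines, by role) in each of 6 groups against WT siGLO (columns, 3 libraries each), from blue (lower) to red (higher), with a dot where the edgeR adjusted p was under 0.01. The WT siPds5b column has no dots, while the Cdc20 and Pttg1 lines have a dot in each of the other columns.

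Cdc20 encodes the activator of the anaphase-promoting complex that the spindle checkpoint restrains, and lies on chr4:118432901-118437352 (GRCm38, minus strand). Per kilobase of exon it had more normalised reads in WT siGLO than any other of the 49 genes (3851 ± 120 normalised read counts per kb, SD, n = 3). Its libraries stood at 6974, 7188 and 7421 normalised read counts in WT siGLO and at 7922, 7228 and 7255 in WT siPds5b. Those groups overlapped. It stood at 8827, 8913 and 8951 in Pds5b-KO siGLO and at 9636, 9245 and 8385 in Pds5a-KO siGLO. Every library of either knockout was above every WT library. In Pds5a-KO cells it was at 11490, 10950 and 11170 with siPds5b, at 9747, 9361 and 9307 with siStag1, and at 10480, 9604 and 9369 with siStag2. The siPds5b libraries of Pds5a-KO cells were above all other libraries.

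Against WT siGLO Cdc20 rose by a log2 fold change of 0.34 in Pds5a-KO siGLO (SE 0.06, edgeR adjusted p 0.000305) and of 0.31 in Pds5b-KO siGLO (SE 0.06, edgeR adjusted p 0.000797). In Pds5a-KO siPds5b it rose by 0.64 (SE 0.06, edgeR adjusted p 2.37e-08), which is 55.7% above WT siGLO. With siStag1 the log2 fold change was 0.40 (edgeR adjusted p 3.92e-05) and with siStag2 0.45 (edgeR adjusted p 5.58e-06). Each of these 5 calls passed under all 7 other settings tried and with any of the 6 libraries left out. Within Pds5a-KO cells siPds5b added 0.30 (SE 0.06, edgeR adjusted p 0.00187), a call that was lost without Pds5a-KO siGLO replicate 3 or Pds5a-KO siPds5b replicate 1 (largest adjusted p 0.0169) and when only the libraries of these groups were fitted.

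Bub1, a checkpoint kinase of the kinetochore, stood at 5567, 5168 and 4887 in WT siGLO and at 7181, 6382 and 6650 in Pds5a-KO siPds5b. The libraries of these groups were apart, and it rose by a log2 fold change of 0.37 (SE 0.08, edgeR adjusted p 0.000677), also with any library left out. The other 5 checkpoint genes, Bub1b, Bub3, Mad1l1, Mad2l1 and Ttk, were called by edgeR in no comparison, though without Pds5a-KO siPds5b replicate 3 Mad2l1 was higher in that group than in WT siGLO (edgeR adjusted p 0.00277). The 7 checkpoint genes together summed to 30906 ± 646 normalised read counts in WT siGLO and to 119.2% of that in Pds5a-KO siPds5b, with Bub1b taking the most reads in the former and Cdc20 in the latter. The rises of Cdc20 and Bub1 given above are part of this difference.

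Pttg1 encodes securin, the inhibitor of separase whose destruction starts anaphase, and lies on chr11:43420250-43426251 (GRCm38, minus strand). It stood at 1615, 1598 and 1458 normalised read counts in WT siGLO and at 1559, 1663 and 1429 in WT siPds5b. Those groups overlapped. It stood at 1110, 1175 and 1048 in Pds5a-KO siGLO and at 623.8, 907.3 and 938.6 in Pds5b-KO siGLO, whose first library was the lowest of all 21. In Pds5a-KO cells it stood at 744.9, 743.2 and 740.5 with siPds5b, at 1015, 1110 and 1155 with siStag1, and at 758.3, 1059 and 929.9 with siStag2. No knockout library reached the lowest WT library. Against WT siGLO Pttg1 fell by 0.92 on the log2 scale in Pds5b-KO siGLO (SE 0.12, edgeR adjusted p 4.64e-06) and with a log2 fold change of -0.49 in Pds5a-KO siGLO (SE 0.12, edgeR adjusted p 0.00312). In Pds5a-KO siPds5b it fell by 1.07 (SE 0.12, edgeR adjusted p 1.97e-07), a percent change of -52.3. With siStag1 the log2 fold change was -0.51 (edgeR adjusted p 0.00193) and with siStag2 -0.77 (edgeR adjusted p 2.06e-05).

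The calls of Pttg1 in Pds5b-KO siGLO, Pds5a-KO siPds5b and Pds5a-KO siStag2 passed with any library left out. That in Pds5a-KO siGLO was lost without WT siGLO replicate 1, WT siGLO replicate 2 or Pds5a-KO siGLO replicate 3 (largest adjusted p 0.0158), and that with siStag1 without siStag1 replicate 1 (0.0116). Within Pds5a-KO cells siPds5b lowered it with a log2 fold change of -0.58 (SE 0.12, edgeR adjusted p 0.00173), which was lost without Pds5a-KO siGLO replicate 2 (0.0113). Pttg1 was higher in Pds5a-KO siGLO than in Pds5b-KO siGLO by 0.43 (edgeR adjusted p 0.00818), a call named after its values were seen and lost without Pds5a-KO siGLO replicate 1, 2 or 3 or Pds5b-KO siGLO replicate 1 or 2 (largest adjusted p 0.0854), when only those libraries were fitted, and under 3 further settings of 7.

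**Figure D2:**
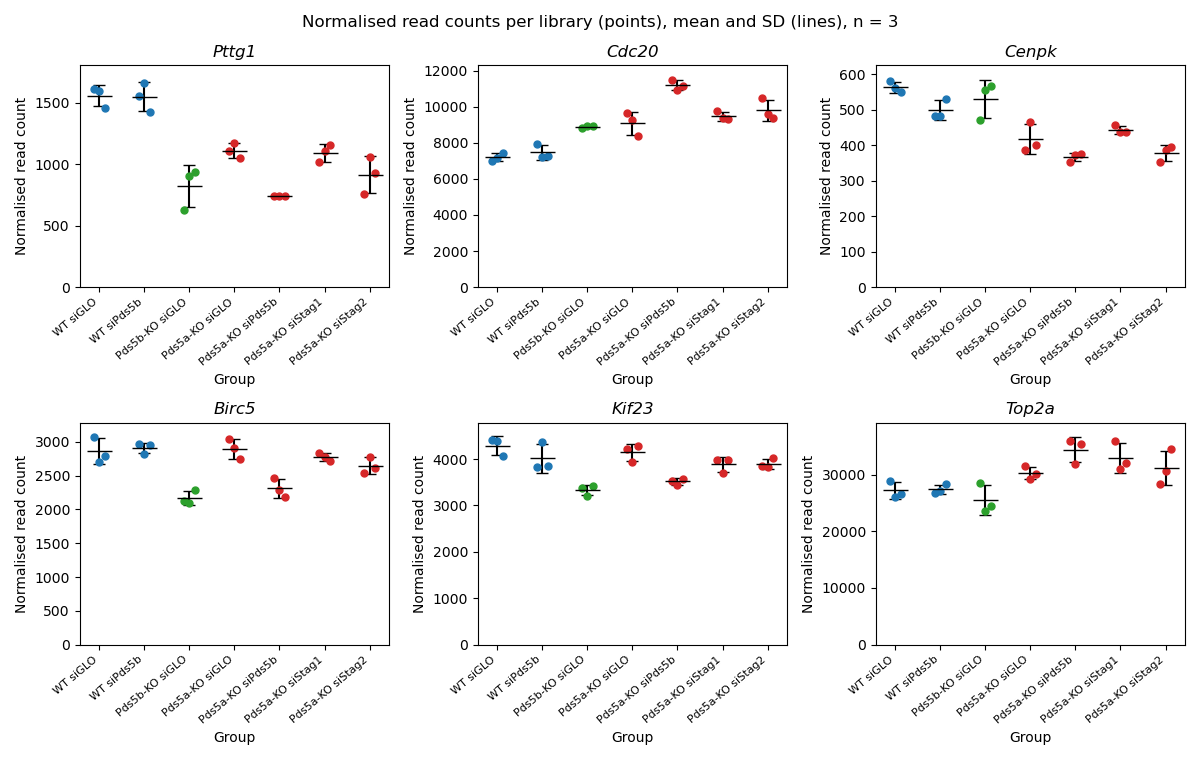
Normalised read counts (vertical axes, from 0) of Pttg1, Cdc20, Cenpk, Birc5, Kif23 and Top2a in each of the 7 groups (horizontal axes), with a point for each library and lines for the mean and SD of 3 libraries, WT in blue, Pds5b-KO in green and Pds5a-KO in red. Pttg1 is between 1429 and 1663 in the WT libraries and at most 1175 in the knockouts.

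Shugoshins protect centromeric cohesin from removal in prophase. Sgol1 stood at 2061, 1983 and 1986 in WT siGLO, at 1505, 1643 and 1542 in Pds5a-KO siStag2 and at 1779, 1557 and 1631 in Pds5a-KO siPds5b. Neither depleted group overlapped WT siGLO. It fell with siStag2 with a log2 fold change of -0.36 (SE 0.08, edgeR adjusted p 0.000638), with any library left out, and in Pds5a-KO siPds5b with -0.28 (edgeR adjusted p 0.00527). The latter call, named after its values were seen, was lost without WT siGLO replicate 1, 2 or 3 or Pds5a-KO siPds5b replicate 2 or 3 (largest adjusted p 0.0361). Sgol2a, the other shugoshin, stood at 3813, 3771 and 3739 in WT siGLO, at 3176, 2959 and 3154 with siStag1 and at 3171, 2993 and 3147 in Pds5a-KO siPds5b. These groups did not overlap with WT siGLO either. Its log2 fold change with siStag1 was -0.29 (edgeR adjusted p 0.00972), and the call was lost with any of the 6 libraries left out (largest adjusted p 0.0501) and under 3 of 7 settings. In Pds5a-KO siPds5b the log2 fold change was -0.28 (edgeR adjusted p 0.0072), named after its values were seen and lost without the same 5 libraries as that of Sgol1 (largest adjusted p 0.0318) and under 1 of 7 settings. Espl1, separase, took the most reads of these 4 genes and stood at 4085, 4415 and 4282 in WT siGLO and at 5585, 4713 and 4894 with siStag2. There was no overlap, and the log2 fold change was 0.25 (SE 0.07, edgeR adjusted p 0.00628). That call was lost without WT siGLO replicate 1, 2 or 3 and without siStag2 replicate 1 or 3 (largest adjusted p 0.0596), and under 1 of 7 settings. The 4 genes of cohesion protection and separase, which are Sgol1, Sgol2a, Espl1 and Pttg1, summed to 11602 ± 153 normalised read counts in WT siGLO. In Pds5a-KO siPds5b they summed to 84.32% of that, and the fall of Pttg1 given above is part of this drop.

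The chromosomal passenger complex corrects faulty attachments and then moves to the midzone. Birc5, or survivin, which targets the complex to centromeres, stood at 3075, 2706 and 2794 in WT siGLO, at 2126, 2097 and 2284 in Pds5b-KO siGLO and at 3041, 2910 and 2749 in Pds5a-KO siGLO. Its Pds5b-KO libraries lay below those of both other groups, which overlapped. With siPds5b it stood at 2459, 2290 and 2186 in Pds5a-KO cells and at 2962, 2825 and 2947 in WT cells. The Pds5a-KO siPds5b libraries lay below those of WT siGLO and of Pds5a-KO siGLO, while those of WT siPds5b overlapped WT siGLO. Birc5 fell in Pds5b-KO siGLO with a log2 fold change of -0.40 (SE 0.07, edgeR adjusted p 7.48e-05) and in Pds5a-KO siPds5b with -0.31 (SE 0.07, edgeR adjusted p 0.000558), both with any library left out. Within Pds5a-KO cells siPds5b lowered it with a log2 change of -0.33 (edgeR adjusted p 0.00126), which was lost without Pds5a-KO siGLO replicate 1 or Pds5a-KO siPds5b replicate 3 (largest adjusted p 0.0122) and when only those libraries were fitted. It was higher in Pds5a-KO siGLO than in Pds5b-KO siGLO by 0.42 (edgeR adjusted p 4.11e-05).

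Cdca8, or borealin, another targeting subunit, stood at 2751, 2871 and 2800 in WT siGLO and at 3126, 3470 and 3134 in Pds5a-KO siGLO. With siStag1 it stood at 3274, 3409 and 3611 and with siStag2 at 3662, 3493 and 3567. None of the 3 groups overlapped WT siGLO. It rose by a log2 fold change of 0.35 with siStag2 (SE 0.06, edgeR adjusted p 5.11e-05), with any library left out, and by 0.29 with siStag1 (SE 0.06, edgeR adjusted p 0.000541), where leaving out siStag1 replicate 3 brought the adjusted p to 0.01. The rise of 0.21 in Pds5a-KO siGLO (edgeR adjusted p 0.0096) was lost with any of the 6 libraries left out (largest adjusted p 0.0879) and under 4 of 7 settings.

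Incenp, the scaffold of the complex and the member of this role with the most reads, stood at 3440, 3328 and 3337 in WT siGLO and at 4659, 4152 and 3555 in Pds5b-KO siGLO. It stood at 3976, 3798 and 4485 in Pds5a-KO siPds5b and at 4573, 3869 and 4069 with siStag2. All these libraries were above those of WT siGLO, though the groups spread widely. The log2 fold changes were 0.29 (edgeR adjusted p 0.00862), 0.28 (0.00728) and 0.31 (0.00361), in that order. Each was lost without any 1 of the WT siGLO replicates 1, 2 and 3. The first was also lost without Pds5b-KO siGLO replicate 1 or 2 (largest adjusted p 0.069), the next without Pds5a-KO siPds5b replicate 1 or 3 (0.0699), each of those under 1 of 7 settings as well, and the last without siStag2 replicate 1 (0.0333). Aurkb, the kinase of the complex, named after its values were seen, stood at 1607, 1748 and 1637 in WT siGLO and at 2094, 1838 and 2035 with siStag2. All siStag2 libraries were above those of WT siGLO (log2 fold change 0.26, edgeR adjusted p 0.00648), and the call was lost without WT siGLO replicate 1 or 3 or siStag2 replicate 1 or 3 (largest adjusted p 0.0355) and when only those libraries were fitted. Haspin, which phosphorylates histone H3 to recruit the complex, was at 610.7 ± 86 normalised read counts in WT siGLO (SD, n = 3) and was called by edgeR in no comparison, though the fit with a replicate block called it lower in Pds5a-KO siGLO and with siStag2.

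Cdk1, the kinase that drives entry into mitosis and the member of its role with the most reads, stood at 6177, 5831 and 5487 in WT siGLO, 4207, 4481 and 4995 in Pds5b-KO siGLO, and 6287, 6431 and 5730 in Pds5a-KO siGLO. The Pds5b-KO libraries were below all others of these groups, while the Pds5a-KO libraries overlapped WT siGLO. Cdk1 fell with a log2 fold change of -0.35 in Pds5b-KO siGLO (SE 0.08, edgeR adjusted p 0.00157), which was lost without WT siGLO replicate 1 or Pds5b-KO siGLO replicate 1 (largest adjusted p 0.0179). It was higher in Pds5a-KO siGLO than in Pds5b-KO siGLO by 0.43 (SE 0.08, edgeR adjusted p 0.000235), with any library left out. Aurka, the kinase of centrosome maturation and spindle assembly, stood at 3856, 3679 and 3640 in WT siGLO, at 4571, 4223 and 4192 in Pds5a-KO siGLO and at 4921, 4539 and 4428 in Pds5a-KO siPds5b. In Pds5b-KO siGLO it stood at 3525, 3169 and 3580. Both Pds5a-KO groups were above WT siGLO and the Pds5b-KO libraries were below it. Aurka rose in Pds5a-KO siPds5b by 0.31 (SE 0.07, edgeR adjusted p 0.000495), with any library left out, and was higher in Pds5a-KO siGLO than in Pds5b-KO siGLO by 0.34 (SE 0.07, edgeR adjusted p 0.000496), a call that was lost when only those libraries were fitted.

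Plk1, which acts at centrosomes, kinetochores and the midzone, stood at 4067, 4148 and 4208 in WT siGLO and at 5311, 4775 and 4948 with siStag2. Plk4, which starts the duplication of centrioles, stood at 1769, 1712 and 1806 in WT siGLO and at 1469, 1292 and 1377 in Pds5a-KO siPds5b. Neither pair of groups overlapped. Plk1 rose by a log2 fold change of 0.28 (SE 0.06, edgeR adjusted p 0.000778) and Plk4 fell with a log2 fold change of -0.35 (SE 0.08, edgeR adjusted p 0.000555), each with any library left out.

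Cenpk, a subunit of the inner kinetochore on chr13:104228611-104252392 (GRCm38, plus strand), had the fewest reads per kilobase of exon of the 49 genes in WT siGLO (108 ± 2.96 normalised read counts per kb, SD, n = 3), and its lowest raw count, 336, was also the lowest of any of them. It stood at 580.9, 559.9 and 550.7 normalised read counts in WT siGLO and at 482.9, 481.1 and 530.4 in WT siPds5b. It stood at 387, 465.8 and 401 in Pds5a-KO siGLO and at 469.7, 555.3 and 566.9 in Pds5b-KO siGLO. All libraries of WT siPds5b and of Pds5a-KO siGLO were below those of WT siGLO, and those of Pds5b-KO siGLO overlapped them. In Pds5a-KO cells it stood at 352.5, 371.1 and 373.8 with siPds5b, 456.4, 436.7 and 437.5 with siStag1, and 351.4, 385.2 and 394.5 with siStag2. These too lay below every WT siGLO library. Cenpk fell in Pds5a-KO siGLO with a log2 fold change of -0.43 (SE 0.09, edgeR adjusted p 0.00101), in Pds5a-KO siPds5b at -0.63 (SE 0.09, edgeR adjusted p 8.03e-06) and with siStag2 at -0.58 (SE 0.09, edgeR adjusted p 2.48e-05), each with any library left out. With siStag1 the log2 fold change was -0.35 (edgeR adjusted p 0.00547), lost with any of the 6 libraries left out (largest adjusted p 0.0237) and under 1 of 7 settings. Between the knockouts it was lower in Pds5a-KO siGLO with a log2 change of -0.34 (edgeR adjusted p 0.00621), lost without Pds5a-KO siGLO replicate 1 or 3 or Pds5b-KO siGLO replicate 2 or 3 (largest adjusted p 0.0259) and when only those libraries were fitted.

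Mis12, a linker between the inner and the outer kinetochore, stood at 1050, 857.2 and 1068 in WT siGLO and at 779.1, 694.9 and 713.2 in Pds5a-KO siGLO. Those groups did not overlap, and it fell with a log2 fold change of -0.45 (SE 0.09, edgeR adjusted p 0.000622), with any library left out. Ndc80, which binds microtubules at the outer kinetochore, stood at 1720, 1523 and 1632 in WT siGLO, 1645, 1667 and 1595 in Pds5a-KO siGLO, and 1289, 1222 and 1369 in Pds5b-KO siGLO. The Pds5b-KO libraries were below those of the other groups, which overlapped. Ndc80 fell in Pds5b-KO siGLO (log2 fold change -0.33, SE 0.07, edgeR adjusted p 0.0016), lost without WT siGLO replicate 1 or Pds5b-KO siGLO replicate 2 (largest adjusted p 0.0171), and was higher in Pds5a-KO siGLO than in Pds5b-KO siGLO by 0.34 (edgeR adjusted p 0.00123), lost without replicate 2 of either group (0.0151) and when only those libraries were fitted. Cenpa, the histone H3 variant that marks centromeres, stood at 3251, 3464 and 2943 in WT siGLO and at 4123, 3745 and 3616 in Pds5a-KO siPds5b. Every Pds5a-KO siPds5b library was above WT siGLO (log2 fold change 0.25, edgeR adjusted p 0.00719), but the call was lost without WT siGLO replicate 1 or 3 or Pds5a-KO siPds5b replicate 1 or 2 (largest adjusted p 0.0693) and under 2 of 7 settings. Knstrn, a kinetochore and spindle protein, stood at 1577, 1620 and 1630 in WT siGLO and at 1809, 2006 and 2059 with siStag2. Again the groups were apart (log2 fold change 0.28, edgeR adjusted p 0.00532), and the call was lost without WT siGLO replicate 1, 2 or 3 or siStag2 replicate 2 or 3 (largest adjusted p 0.0327). Cenpf, a large protein of the outer kinetochore and the member of this role with the most reads, stood at 6348, 5775 and 5870 in WT siGLO and was called by edgeR in no comparison, though DESeq2 (adjusted p 0.00844) and the fit with a replicate block called it lower in Pds5a-KO siGLO than in Pds5b-KO siGLO.

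Top2a, the topoisomerase that disentangles sister chromatids, took the most reads of all 49 genes. It stood at 28940, 26150 and 26580 in WT siGLO and at 35960, 31860 and 35360 in Pds5a-KO siPds5b. Those groups did not overlap, and it rose by a log2 fold change of 0.34 (SE 0.08, edgeR adjusted p 0.00176), a call lost without WT siGLO replicate 2 or 3 or Pds5a-KO siPds5b replicate 1 or 3 (largest adjusted p 0.0142). Ncapg2, a subunit of condensin II, stood at 1930, 1751 and 2004 in WT siGLO, 1561, 1403 and 1625 in Pds5a-KO siGLO, and 1480, 1413 and 1421 with siStag1. Both Pds5a-KO groups were below WT siGLO in every library. Its log2 fold change with siStag1 was -0.40 (SE 0.08, edgeR adjusted p 0.000433), called with any library left out, and in Pds5a-KO siGLO -0.31 (edgeR adjusted p 0.00458), lost without WT siGLO replicate 1 or 3 or Pds5a-KO siGLO replicate 2 (largest adjusted p 0.0392) and under 1 of 7 settings. In Pds5a-KO siPds5b 3 condensin genes fell that are named here after their values were seen: Ncapg, of condensin I (log2 fold change -0.28, edgeR adjusted p 0.00472), Smc4, of both condensins (-0.24, 0.00508), and Ncapg2 (-0.26, 0.00891). Each of these was lost without WT siGLO replicate 1 or 3 or Pds5a-KO siPds5b replicate 2 or 3 (largest adjusted p 0.0304, 0.0259 and 0.0611), those of Smc4 and Ncapg2 also when only the libraries compared were fitted, and that of Ncapg2 under 3 further settings of 7. Smc2, Ncapd2, Ncapd3, Ncaph and Ncaph2, the other condensin subunits, were called by edgeR in no comparison, though DESeq2 and the fit with a replicate block called Ncaph2 lower in Pds5a-KO siPds5b (DESeq2 adjusted p 0.00898).

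Kif18a, a kinesin that limits the length of kinetochore microtubules, stood at 1947, 1755 and 1873 in WT siGLO, 1588, 1378 and 1239 in Pds5a-KO siPds5b, and 1312, 1431 and 1595 with siStag2. Neither depleted group overlapped WT siGLO. It fell in Pds5a-KO siPds5b with a log2 fold change of -0.41 (SE 0.09, edgeR adjusted p 0.000808), with any library left out, and with siStag2 at -0.36 (edgeR adjusted p 0.00248), lost without WT siGLO replicate 1 or siStag2 replicate 1 (largest adjusted p 0.0227). Kif23, a motor of the midzone needed for cytokinesis, stood at 4416, 4392 and 4059 in WT siGLO, 3373, 3206 and 3420 in Pds5b-KO siGLO, and 3530, 3444 and 3578 in Pds5a-KO siPds5b. Both depleted groups were below WT siGLO in every library. Kif23 fell, with log2 fold changes of -0.36 in Pds5b-KO siGLO (SE 0.06, edgeR adjusted p 0.000147) and -0.29 in Pds5a-KO siPds5b (SE 0.06, edgeR adjusted p 0.000803), both with any library left out. In Pds5a-KO siGLO Kif23 stood at 4221, 3936 and 4283, which overlapped WT siGLO and lay above Pds5b-KO siGLO (log2 fold change 0.32, edgeR adjusted p 0.000643, lost when only those libraries were fitted).

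Kif20a, another midzone motor, stood at 6351, 5816 and 5675 in Pds5a-KO siGLO and at 4991, 4576 and 4947 in Pds5b-KO siGLO. Those groups did not overlap (log2 fold change 0.30, edgeR adjusted p 0.00125), and the call was lost without Pds5a-KO siGLO replicate 1 or Pds5b-KO siGLO replicate 2 (largest adjusted p 0.0183) and when only those libraries were fitted. Tpx2, which activates Aurora A on spindle microtubules and took the most reads of the motor and assembly genes, stood at 8165, 7541 and 7487 in WT siGLO, 7999, 7988 and 7697 in Pds5a-KO siGLO, and 7012, 6491 and 6600 in Pds5b-KO siGLO. The Pds5b-KO libraries were the lowest of these. Between the knockouts Tpx2 (log2 fold change 0.24, edgeR adjusted p 0.00752), Kif2c, a microtubule depolymerase (0.30, 0.00275), and Cenpa (0.31, 0.00213) were also higher in Pds5a-KO siGLO, and these 3 calls were named after their values were seen. All 3 were lost when only those libraries were fitted, and that of Tpx2 under 3 further settings of 7. That of Tpx2 was also lost with any of the 6 libraries left out (largest adjusted p 0.0505), that of Kif2c without Pds5a-KO siGLO replicate 2 or 3 or Pds5b-KO siGLO replicate 1, 2 or 3 (0.0273), and that of Cenpa without Pds5a-KO siGLO replicate 2 or Pds5b-KO siGLO replicate 1 (0.0321). Anln, or anillin, the ring protein with the most reads among the cytokinesis genes, stood at 6628, 6013 and 6040 in WT siGLO and was called by edgeR in no comparison. Relative to WT siGLO the midzone genes summed to 91.37% in Pds5b-KO siGLO and the motor and assembly genes to 91.91%, while in Pds5a-KO siGLO they summed to 102.8% and 101.4%.

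The 21 mitosis genes that edgeR, fitted to all libraries, called in no comparison were Smc2, Ncapd2, Ncapd3, Ncaph, Ncaph2, Haspin, Bub1b, Bub3, Mad1l1, Mad2l1, Ttk, Cenpe, Cenpf, Nuf2, Spc24, Spc25, Kif11, Kif4, Prc1, Anln and Ect2. In Pds5a-KO siPds5b against WT siGLO their log2 fold changes ran from -0.26 (Ncaph2, edgeR adjusted p 0.0125) to 0.25 (Cenpe, a kinesin of the kinetochore, edgeR adjusted p 0.0249). Between the knockouts they ran from -0.25 (Cenpf, edgeR adjusted p 0.0197) to 0.37 (Spc24, a partner of Ndc80, edgeR adjusted p 0.0139). DESeq2 called 3 of the 21: Ncaph2 in Pds5a-KO siPds5b against WT siGLO, Spc25 with siStag2 against WT siGLO, and Cenpf between the knockouts. With replicate number as a block edgeR called 6 of them, Haspin, Ncaph2, Prc1, Cenpe, Cenpf and Spc24, and at an adjusted p under 0.01 11 of the 21 were called under none of the 7 other settings and with no library left out. Missing the threshold does not show that these genes were equal between groups.

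Summed over all 49 genes the mitosis transcripts were at 207660 ± 5980 normalised read counts in WT siGLO (SD, n = 3). Relative to that they were at 99.17% in WT siPds5b, 96.62% in Pds5b-KO siGLO, 102.5% in Pds5a-KO siGLO, and at 104.7%, 105.2% and 104.8% in Pds5a-KO cells with siPds5b, siStag1 and siStag2. The last 3 sums were 217440 ± 8470, 218560 ± 8930 and 217550 ± 8940, so their SDs were close to their differences from WT siGLO. Genes with many reads weigh most in the sum. Top2a and Cdc20 rose in Pds5a-KO siPds5b, where more members fell than rose. The sum thus moved by far less than Cdc20 or Pttg1, which moved in opposite directions. A list of 27 genes of DNA replication, which are transcribed mostly around the G1/S boundary, is set beside them. It summed to 139810 ± 979 normalised read counts in WT siGLO, to 96.32% of that in WT siPds5b, 89.14% in Pds5b-KO siGLO, 83.05% in Pds5a-KO siGLO, and 77.11%, 80.37% and 78.59% with siPds5b, siStag1 and siStag2 in Pds5a-KO cells. Of the 27 replication genes 13 fell in Pds5a-KO siGLO against WT siGLO and 9 fell and 1 rose in Pds5b-KO siGLO. In Pds5a-KO cells 18 fell with siPds5b, 19 with siStag1 and 18 with siStag2, and their median log2 fold changes were -0.31, -0.32 and -0.32, against -0.02, -0.01 and -0.03 for the mitosis genes. In WT siPds5b edgeR called 0 of the 27 (2 with an unadjusted p under 0.05, 0 by DESeq2), with a median of -0.04. The shares of replication genes that fell, 48.1% in Pds5a-KO siGLO and 33.3% in Pds5b-KO siGLO, stand against 8.12% and 8.57% of all tested genes, and those with siPds5b, siStag1 and siStag2, 66.7%, 70.4% and 66.7%, against 14.6%, 9.37% and 13.9%. The difference between the lists was not tested.

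**Figure D3:**
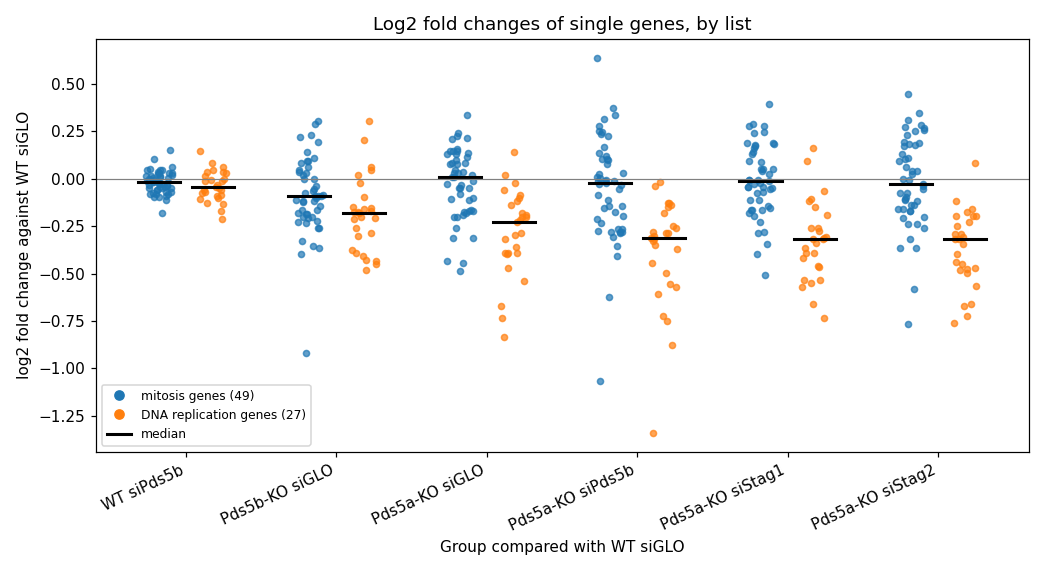
Log2 fold changes against WT siGLO (vertical axis) of each of the 49 mitosis genes (blue) and 27 DNA replication genes (orange) in 6 groups (horizontal axis), with black lines for the medians. In Pds5a-KO siPds5b the median is -0.02 for the mitosis genes and -0.31 for the replication genes.

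The rest of the mitotic machinery was followed through 83 further genes in 4 lists: the other kinetochore genes (28), the anaphase-promoting complex (18), mitotic entry and its transcription factors (13), and other genes of spindle, centrosome and cytokinesis (24). Against WT siGLO 2 of the 83 rose and 5 fell in Pds5a-KO siGLO, 3 rose and 4 fell in Pds5b-KO siGLO, and edgeR called 0 in WT siPds5b (1 with an unadjusted p under 0.05, 0 by DESeq2). In Pds5a-KO cells 4 rose and 10 fell with siPds5b, 2 rose and 8 fell with siStag1, and 7 rose and 9 fell with siStag2. In these groups, Pds5a-KO siGLO, Pds5b-KO siGLO and then those with siPds5b, siStag1 and siStag2, the shares of the 83 that rose were 2.41%, 3.61%, 4.82%, 2.41% and 8.43%, where 9.63%, 9.64%, 17.4%, 10.6% and 16.2% of all tested genes did. The shares that fell were 6.02%, 4.82%, 12%, 9.64% and 10.8%, where 8.12%, 8.57%, 14.6%, 9.37% and 13.9% of all tested genes did. Within Pds5a-KO cells siPds5b lowered 2 and siStag2 lowered 2, or 2.41% of the 83 each against 3.59% and 1.27% of all tested genes, while edgeR called 0 with siStag1 (5 with an unadjusted p under 0.05, 0 by DESeq2). Between the knockouts 6 were higher and 6 lower in Pds5a-KO siGLO, or 7.23% each way against 9.74% and 9.46%. Among the genes with the smallest adjusted p in these lists and the replication list, Rrm2, a subunit of ribonucleotide reductase, fell by 0.67 in Pds5a-KO siGLO (edgeR adjusted p 1.78e-07) and by 1.34 in Pds5a-KO siPds5b (edgeR adjusted p 7.63e-13), and Mcm5, of the replicative helicase, with a log2 fold change of -0.54 and -0.72. Wee1, the kinase that inhibits CDK1, rose by 0.41 and Cdc25b, the phosphatase that activates it, by 0.51 with siStag2, while Cenpm, of the inner kinetochore, fell by 0.82 in Pds5b-KO siGLO (edgeR adjusted p 7.44e-06).

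How far the genes vary together was described by the mean Pearson correlation over pairs of genes across the 21 libraries, which share groups and processing, so that no p is given. The mean was 0.085 over the 49 mitosis genes, 0.518 over the replication genes, 0.045 over the 83 further mitosis genes and 0.001 over all genes. After each group's mean was taken out it was 0.162 for the mitosis genes and 0.172 for the replication genes. Within groups the spindle motor and assembly genes had a mean of 0.574 and the midzone genes 0.429. The other roles were lower, at 0.291 (condensin and topoisomerase), 0.204 (spindle checkpoint), 0.1 (mitotic entry and centrosome kinases) and 0.078 (centromere and kinetochore). The passenger complex with haspin was at -0.049 and cohesion protection with separase at -0.152. Against the mean of the other 48 mitosis genes Kif2c (0.686), Tpx2 (0.676) and Ttk (0.642) had the highest correlations, while that of Pttg1 was 0.231, of Cdc20 -0.211, of Espl1 -0.292 and of Ncapd2 -0.35. Birc5, also called between groups, had 0.579, so that called genes were found among the high correlations and among the low.

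The 49 genes lie on 17 chromosomes. Chromosome 8, with 781 tested genes, holds none of them, and its genes had a median log2 fold change of -0.19 in Pds5a-KO siGLO and 0.30 in Pds5b-KO siGLO against WT siGLO. Of these genes 41 rose and 174 fell in Pds5a-KO siGLO, and 284 rose and 11 fell in Pds5b-KO siGLO. They are counted in the shares of all tested genes given above. Exons of 16 of the 49 overlap those of another gene, and 11 of these overlap a protein-coding gene on the opposite strand, where the strand setting of the read counting, not given in the sources used here, decides which gene the reads were given to. For Cdc20 the overlap is 53 bp with Elovl1, which stood at 358.2 normalised read counts in WT siGLO and 512.4 in Pds5a-KO siPds5b and rose, as Cdc20 did, there (log2 fold change 0.52, edgeR adjusted p 0.00505) and with siStag2 (0.48, 0.00931), but was not called where Cdc20 rose in Pds5b-KO siGLO (0.09, 0.665), Pds5a-KO siGLO (0.44, 0.0232) and with siStag1 (0.20, 0.311), nor with siPds5b against Pds5a-KO siGLO (0.08, 0.769). For Cenpk it is 233 bp with Ppwd1, whose log2 fold change with siStag2 was -0.37 (edgeR adjusted p 0.000752). Ppwd1 was not called where Cenpk fell in Pds5a-KO siGLO (-0.16, 0.139), Pds5a-KO siPds5b (-0.21, 0.0318) and with siStag1 (-0.15, 0.165). For Kif18a the overlap is 11 bp with Mettl15, whose log2 fold change in Pds5a-KO siPds5b was -0.71 (edgeR adjusted p 0.00131). Mettl15 also fell with siStag2 against WT siGLO (-0.58, edgeR adjusted p 0.00733), as Kif18a did. It fell with siStag1 too (-0.70, edgeR adjusted p 0.00247), where Kif18a was not called. For Mis12 it is 231 bp with Derl2, at -0.04 in Pds5a-KO siGLO (edgeR adjusted p 0.739). The part of these overlaps in the changes of Cdc20, Cenpk and Kif18a was not tested. Per kilobase of exon the levels in WT siGLO ran from the 108 of Cenpk over 189 for Kif18a, 191 for Ncapg2, 778.5 for Pttg1 and 3020.5 for Top2a to the 3851 of Cdc20, all in normalised read counts per kb.

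Promoters were read for shared letters because many mitosis genes are transcribed together, through elements known as CHR and CCAAT, and because the replication genes often carry E2F sites. RefSeq windows from 250 bases before to 50 after the start of transcription (GRCm38.p6) were at hand for 43 of the 49 genes, in 51 windows, and for 27025 genes in all, in 32851 windows. The letters searched, on both strands, were TTTGAA or TTCGAA for CHR, CCAAT for the CCAAT box, and TTTGGCGC, TTTCCCGC, TTTCGCGC or TTTGCCGC for E2F. CHR letters were in 64.7% of the windows of mitosis genes and 19.2% of all windows, CCAAT in 64.7% and 37.4%, both in 51% and 7.52%, and E2F letters in 9.8% and 2.26%. The windows of replication genes held CHR letters in 20%, CCAAT in 60% and E2F letters in 36%. By gene 30 of the 43 held CHR letters, 27 CCAAT and 23 both, and 8, Pttg1 and Birc5 among them, held none of the 3. Both were held by 12 of the 23 genes with a window that were called in any comparison and by 11 of the 20 called in none, and of those called in Pds5a-KO siPds5b by 5 of 5 that rose and 3 of 10 that fell. These are counts of letters, which show no binding. The promoters of Cdc20 (chr4:118437344-118437493), Top2a (chr11:99024190-99024339) and Cdk1 (chr10:69352913-69353062), all on the minus strand of GRCm38.p6 and taken from RefSeq, are printed 5′ to 3′ because the first is that of the checkpoint gene that rose in each comparison of knockout cells with WT, the next that of the gene with the most reads, and the last that of the kinase which drives mitosis, with the letters of any motif in capitals.
Cdc20: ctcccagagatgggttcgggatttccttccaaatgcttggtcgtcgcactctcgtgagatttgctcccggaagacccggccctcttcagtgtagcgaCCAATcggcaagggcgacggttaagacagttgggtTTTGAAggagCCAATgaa
Top2a: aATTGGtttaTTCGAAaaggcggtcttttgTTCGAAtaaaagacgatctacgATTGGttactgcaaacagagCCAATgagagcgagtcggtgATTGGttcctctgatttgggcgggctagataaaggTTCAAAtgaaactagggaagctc
Cdk1: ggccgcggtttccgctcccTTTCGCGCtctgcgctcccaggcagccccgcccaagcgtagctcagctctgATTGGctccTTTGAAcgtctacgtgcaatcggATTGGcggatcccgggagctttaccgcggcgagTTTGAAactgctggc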

How the data were processed

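Gene counts deposited by the authors for 21 RNA-seq libraries were used as raw counts; per the submitters' processing notes, reads were aligned to mm10 with STAR, and DESeq2 was their test. The counting tool and its strand setting were not given in the sources used here. Genes with low counts were filtered by filterByExpr, libraries scaled by TMM, and group differences tested over 14963 genes with the quasi-likelihood F test of edgeR 4.0.16 (R 4.3.3) with the Benjamini-Hochberg adjustment. The code was tested on simulated data. Named genes were, for each comparison, the up to 6 higher and 6 lower members with the smallest adjusted p, the member of each role with the most reads, the targeted genes, and up to 2 higher and 2 lower genes from other lists. Members and lists were chosen with earlier results of these data known. Sgol2a and Haspin were matched by their older symbols Sgol2 and Gsg2. Alternatives were RLE or library-size scaling, no filter or at least 10 counts in every library, DESeq2 1.42.0, a looser threshold, a replicate block, only the libraries compared, and leaving out each library. Whether libraries with the same replicate number belong together was checked over 12029 genes: after the group's mean was taken out, same-number correlations were 0.336 to 0.521 between WT siPds5b and WT siGLO, and 0.336 to 0.688, 0.175 to 0.624 and 0.135 to 0.236 between siPds5b, siStag1 and siStag2 and Pds5a-KO siGLO. Replicate numbers were taken to pair those samples. The same correlations were 0.061 to 0.323 between Pds5a-KO siGLO and WT siGLO, 0.089 to 0.302 between Pds5b-KO siGLO and WT siGLO, and 0.039 to 0.401 between the knockouts. In Pds5a-KO cells with siPds5b, siStag1 and siStag2 against WT siGLO they were -0.028 to 0.226, -0.043 to 0.222 and -0.082 to 0.03. Several of these ranges overlap that of siStag2 against Pds5a-KO siGLO. The correlations alone thus do not decide which samples are paired. Positions and exon lengths came from GENCODE M21 and promoters from RefSeq (GRCm38.p6). Figures were drawn with matplotlib 3.10.9 (Python 3.11.15).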

Additional observations from a re-analysis of the deposited data

Results flagged for a closer look

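Of all tested genes 222 passed the interaction term of edgeR, and 4 of the 9 mESC markers (5 by DESeq2) were among those with a more negative log2 fold change in Pds5a-KO cells. Among the 222 were 2 genes of the mitosis and replication lists set beside the 49, for which the effect of siPds5b differed between Pds5a-KO and WT cells by the interaction term of edgeR. Mybl2, a transcription factor of the G2 and mitosis programme, stood at 12070, 11140 and 10370 normalised read counts in WT siGLO, 13530, 11370 and 10340 in WT siPds5b, 15030, 14580 and 14060 in Pds5a-KO siGLO, and 10240, 9651 and 10880 in Pds5a-KO siPds5b. The siPds5b libraries were below the siGLO libraries in Pds5a-KO cells and overlapped them in WT cells, and the difference of log2 fold changes was -0.575 (edgeR adjusted p 0.00734). Rrm2 stood at 8020, 7995 and 7826 in WT siGLO, 6666, 6860 and 7055 in WT siPds5b, 5266, 4665 and 5043 in Pds5a-KO siGLO, and 3456, 3076 and 2877 in Pds5a-KO siPds5b. Here siPds5b libraries were below siGLO libraries in both genotypes, and the difference of log2 fold changes was -0.458 (edgeR adjusted p 0.00797).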

How the results depend on the processing

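The 51 calls of members named by the rule above were labelled once for each alternative. All fits that left out a library counted as 1 alternative. Of the 459 labels 415 kept direction and side of the threshold, 44 were no longer past it and 0 reversed. The looser threshold gave 51 of the labels kept, which was fixed beforehand, since a call under 0.01 is also under 0.05. When each library was left out in turn, 28 of the 51 calls passed every time and 23 were lost at least once. Calls named after their values were seen are not among the 51. At an adjusted p under 0.05 the members called were 11 in Pds5a-KO siGLO, 14 in Pds5b-KO siGLO, 15 with siStag1 and 18 with siStag2 against WT siGLO, 5 with siPds5b and 3 with siStag2 against Pds5a-KO siGLO, 20 between the knockouts and 1 for the interaction. Of all tested genes 28.2%, 31.3%, 31.2%, 43%, 15.7%, 7.99%, 32.4% and 3.86% passed there, in the same order. This list is not complete, since the count for Pds5a-KO siPds5b against WT siGLO at that threshold is not given. DESeq2 called 10 with siStag1 against WT siGLO, and 22.7% of all tested genes. Fits of only the libraries compared called 1 with siPds5b against Pds5a-KO siGLO, 2 between the knockouts and 1 for the interaction, beside 3.66%, 12.8% and 0.911% of all genes tested in those fits; fewer libraries then set the spread. Leaving out each library in turn gave 3 to 5 members in Pds5a-KO siGLO, 4 to 8 in Pds5b-KO siGLO, 9 to 14 in Pds5a-KO siPds5b, 3 to 5 with siStag1 and 6 to 12 with siStag2 against WT siGLO, 2 to 3 with siPds5b against Pds5a-KO siGLO, 5 to 9 between the knockouts, and 0 to 0 in the other comparisons. The shares of all tested genes called with a library left out are not given, here or in the Results. These counts thus do not separate a loss of calls among the members from a loss among genes at large. With replicate number as a block the counts were 8, 7, 0, 20, 9 and 15 against WT siGLO (Pds5a-KO siGLO, Pds5b-KO siGLO, WT siPds5b, and Pds5a-KO with siPds5b, siStag1 and siStag2), 3, 0 and 0 within Pds5a-KO cells, 14 between the knockouts and 0 for the interaction, and the block ended 0 of the members' calls. Of all tested genes the block called 21.2%, 22.2%, 0.02%, 36%, 23.5%, 33.7%, 10.5%, 0.321%, 4.52%, 23.7% and 2.6% in that order. In the comparisons of knockout with WT cells and between the knockouts the samples share a number and are not known to be paired. Some of their same-number correlations, given above, were as high as those with siStag2. Members higher and lower went from 2 and 4 to 1 and 4 (RLE, library size) or 3 and 4 (DESeq2) in Pds5a-KO siGLO, from 2 and 5 to 2 and 6 (library size) or 3 and 5 (DESeq2) in Pds5b-KO siGLO, and from 6 and 11 to 6 and 10 (RLE), 8 and 9 (library size) or 7 and 12 (DESeq2) in Pds5a-KO siPds5b. In Pds5a-KO siGLO 1441 and 1215 of all tested genes became 1425 and 1240 (RLE), 1365 and 1255 (library size) or 1616 and 1445 (DESeq2). In Pds5b-KO siGLO 1443 and 1282 became 1399 and 1282 (library size) or 1790 and 1431 (DESeq2). In Pds5a-KO siPds5b 2598 and 2189 became 2618 and 2139 (RLE), 2770 and 1921 (library size) or 2822 and 2367 (DESeq2). Members higher and lower went from 2 and 4 to 2 and 3 (RLE), 3 and 4 (library size) or 6 and 4 (DESeq2) with siStag1 and from 7 and 4 to 8 and 5 (library size, DESeq2) with siStag2 against WT siGLO, from 1 and 2 to 1 and 3 (DESeq2) with siPds5b against Pds5a-KO siGLO, and from 10 and 1 to 8 and 1 (RLE), 9 and 1 (library size) or 10 and 2 (DESeq2) between the knockouts. Of all tested genes 1589 and 1402 became 1596 and 1399 (RLE), 1521 and 1419 (library size) or 1816 and 1583 (DESeq2) with siStag1. With siStag2 the counts of 2424 and 2086 became 2420 and 2021 (library size) or 2574 and 2306 (DESeq2). Against Pds5a-KO siGLO 599 and 537 became 832 and 668 (DESeq2) with siPds5b. Between the knockouts 1457 and 1416 became 1313 and 1526 (RLE), 1369 and 1429 (library size) or 1620 and 1798 (DESeq2). The cause of these shifts was not tested. Each comparison rests on 3 libraries a group and on a single clone of each knockout, and the lowest raw count of any member was 336.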
